A study of Mus musculus with 6 samples.

Results

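Cholesterol synthesis, its control by SREBP2, and the esterification and trafficking of its product were followed through 28 genes in mouse bone marrow, all of which had a row among the 49315 in the table of raw counts. The genes were listed by name for their place in these processes, and the list was made with earlier results of these data known. They fall into 4 regulators of SREBP2, 8 enzymes of the mevalonate and isoprenoid steps, 12 of the squalene and sterol steps, and 4 genes of esterification and trafficking. No lipoprotein receptor is among the 28, and some from a related list are given further on. All 28 passed the filter on low counts, the lowest count of a member in a library being 193 reads (Tm7sf2, WT replicate 1).

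Cholesterol reaches cells by uptake of lipoproteins and by synthesis from acetyl-CoA, and the gene set described here covers the control of that supply, the synthetic enzymes and the handling of the product. Membranes of the endoplasmic reticulum that are poor in cholesterol release SREBP2, a membrane-bound transcription factor, which is escorted to the Golgi apparatus by Scap, cut there, and then raises transcription of nearly every enzyme of the pathway. Insig proteins hold Scap and SREBP2 back when sterols are plentiful. In blood-forming marrow the pathway supplies membrane for dividing progenitors and maturing leukocytes, and surplus cholesterol is esterified for storage.

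RNA of bone marrow cells was sequenced after poly(A) selection in mice given the HFSC diet and hindlimb ischemia, in which the arterial supply of a leg is interrupted. The KO group (3 libraries, replicates 2, 3 and 4) was labelled miR-181a2b2-/-, which denotes loss of the locus for miR-181a and miR-181b on chromosome 2. The WT group (3 libraries, replicates 1, 3 and 4) carried miR-181a2b2flox/flox, the floxed and undeleted locus, so the WT animals carried loxP sites. Both groups had the diet and the ischemia, and no library without either was compared. Age, sex, the cell type in which the locus was deleted and the number of animals behind each library are not in the labels, so the p-values given reflect the spread of these libraries, which may be technical. Another pair of miR-181a and miR-181b genes lies on chromosome 1, outside the deleted locus. The rows of Mir181a-2 and Mir181b-2 had 0 counts in all 6 libraries of this poly(A) selected RNA, KO and WT, so the deletion could not be checked here.

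Total counts lay between 33861440 and 40359093 reads per library. KO replicate 4 stood apart on the first principal component, at 53.9 against 9.09 and 12.02 for the other KO libraries and -21.9 to -27.5 for the WT libraries. Xist, transcribed in female cells, was above 1 CPM in KO replicate 2 and in WT replicates 3 and 4, so it marked 1 of 3 KO and 2 of 3 WT libraries. Although the extraction text names white adipose tissue, 7 adipocyte markers together lay between 24.8 and 40.8 CPM in KO and between 17.2 and 27.1 CPM in WT, against 4583 to 6847 CPM for 6 neutrophil precursor markers over all libraries. Every marker list had all its members detected and none at 0, and the sums of erythroid, B lineage, T and NK, monocyte and macrophage, and skeletal muscle markers overlapped between the groups. Late neutrophil markers (8 genes) summed to between 59764 and 73552 CPM in KO and between 39846 and 51496 CPM in WT, neutrophil precursor markers to 5727 to 6847 CPM in KO and 4583 to 4873 CPM in WT, and proliferation markers (8 genes) to 3309 to 4216 CPM in KO and 4535 to 4979 CPM in WT. Immediate early genes (8 genes) summed to 1621 to 2216 CPM in KO and 4345 to 5488 CPM in WT. These 4 sums did not overlap between the groups, and their part in the results on cholesterol genes was not tested. In bulk marrow, fewer cells of a type and less RNA per cell cannot be told apart.

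The deleted locus encodes the following mature microRNAs, shown because the letters in capitals, the seed at bases 2 to 8 that pairs with target messages, are the same in both and define the sites searched for below (RefSeq, GRCm38.p6).
mmu-miR-181a-5p, chr2:38852741-38852763, plus strand: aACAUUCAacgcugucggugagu
mmu-miR-181b-5p, chr2:38853845-38853868, plus strand: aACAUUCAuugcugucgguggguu

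Promoter windows of 300 bases (250 before and 50 after a start site, RefSeq, GRCm38.p6) were available for 23 of the 28 genes. Fdft1, Fdps, Npc1, Sqle and Stard4 had no entry. The windows of the genes that the results below turn on, and of Hmgcs1, an early enzyme and the one with a sterol response element match, are shown from 5′ to 3′ on the gene's own strand. Insig2 has 3 windows, of which the one with CCAAT boxes is shown, and the other two hold 0. Capitals mark every CCAAT box, the binding sequence of the factor NF-Y that acts together with SREBP2 at sterol genes (CCAAT, read as ATTGG on the other strand), and every match to TCACNCCAC, the core of the sterol response element bound by SREBP2, on either strand.
Hmgcs1 promoter, chr13:119690101-119690400, plus strand: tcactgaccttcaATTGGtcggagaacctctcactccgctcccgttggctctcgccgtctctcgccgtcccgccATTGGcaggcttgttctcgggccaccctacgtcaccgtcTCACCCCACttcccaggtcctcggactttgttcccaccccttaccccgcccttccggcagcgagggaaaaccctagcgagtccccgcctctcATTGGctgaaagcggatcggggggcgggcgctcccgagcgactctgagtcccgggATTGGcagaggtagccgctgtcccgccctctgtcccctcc
Insig1 promoter, chr5:28071162-28071461, plus strand: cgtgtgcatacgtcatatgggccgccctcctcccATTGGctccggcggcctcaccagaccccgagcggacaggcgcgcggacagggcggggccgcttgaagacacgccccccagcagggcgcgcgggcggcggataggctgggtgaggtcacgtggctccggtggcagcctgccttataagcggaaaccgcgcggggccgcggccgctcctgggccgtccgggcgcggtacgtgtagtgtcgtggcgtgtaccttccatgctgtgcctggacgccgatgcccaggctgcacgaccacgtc
Insig2 promoter, chr1:121332540-121332839, minus strand: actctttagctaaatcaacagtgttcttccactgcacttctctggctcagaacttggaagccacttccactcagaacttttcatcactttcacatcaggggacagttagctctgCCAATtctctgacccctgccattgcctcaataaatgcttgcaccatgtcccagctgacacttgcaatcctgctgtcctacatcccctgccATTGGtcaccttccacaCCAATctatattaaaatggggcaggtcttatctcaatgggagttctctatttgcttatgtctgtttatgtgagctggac
Msmo1 promoter, chr8:64733529-64733828, minus strand: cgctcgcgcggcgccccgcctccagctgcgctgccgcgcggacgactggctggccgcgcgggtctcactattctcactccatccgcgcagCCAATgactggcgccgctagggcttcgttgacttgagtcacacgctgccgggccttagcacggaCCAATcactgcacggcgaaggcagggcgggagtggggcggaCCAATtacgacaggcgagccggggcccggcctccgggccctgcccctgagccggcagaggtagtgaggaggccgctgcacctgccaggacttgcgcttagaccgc
Soat1 promoter, chr1:156474279-156474578, minus strand: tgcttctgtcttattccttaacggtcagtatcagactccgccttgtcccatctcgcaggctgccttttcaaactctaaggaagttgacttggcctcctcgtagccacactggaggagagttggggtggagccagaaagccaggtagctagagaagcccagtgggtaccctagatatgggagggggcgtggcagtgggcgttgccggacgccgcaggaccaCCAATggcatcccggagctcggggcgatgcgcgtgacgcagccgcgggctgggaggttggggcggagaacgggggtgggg

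CCAAT boxes were common in these windows. At least 1 was found in 21 of the 23 genes (91.3%), all but Acat2 and Scap, against 42.4% of the tested genes that had a window and 41.1% of all genes that had one. A gene with several windows was counted if any of them matched. By window it was 21 of 29, against 37.3% of the windows of tested genes. Of 45 matches in the set, 42 began upstream of the start site, at a median of 61 bases before it and between 6 and 237 bases. The GC box (GGGCGG, either strand), the binding sequence of Sp1, was also found in 21 of 23 genes (91.3%), against 64.5% of tested genes with a window. By window it was 24 of 29, against 58.1%. TCACNCCAC was found only in Hmgcs1 among the 23 (4.35%), beginning 137 bases before the start, against 1.43% of tested genes with a window. The E box (CACGTG), which SREBP proteins can also bind, was present in 5 genes, Dhcr7, Hsd17b7, Insig1, Sc5d and Scap (21.7%), against 11.2% of tested genes. Of the matches to these 4 motifs, 0 pairs shared bases. Each share describes letters in these windows only.

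**Figure D1:**
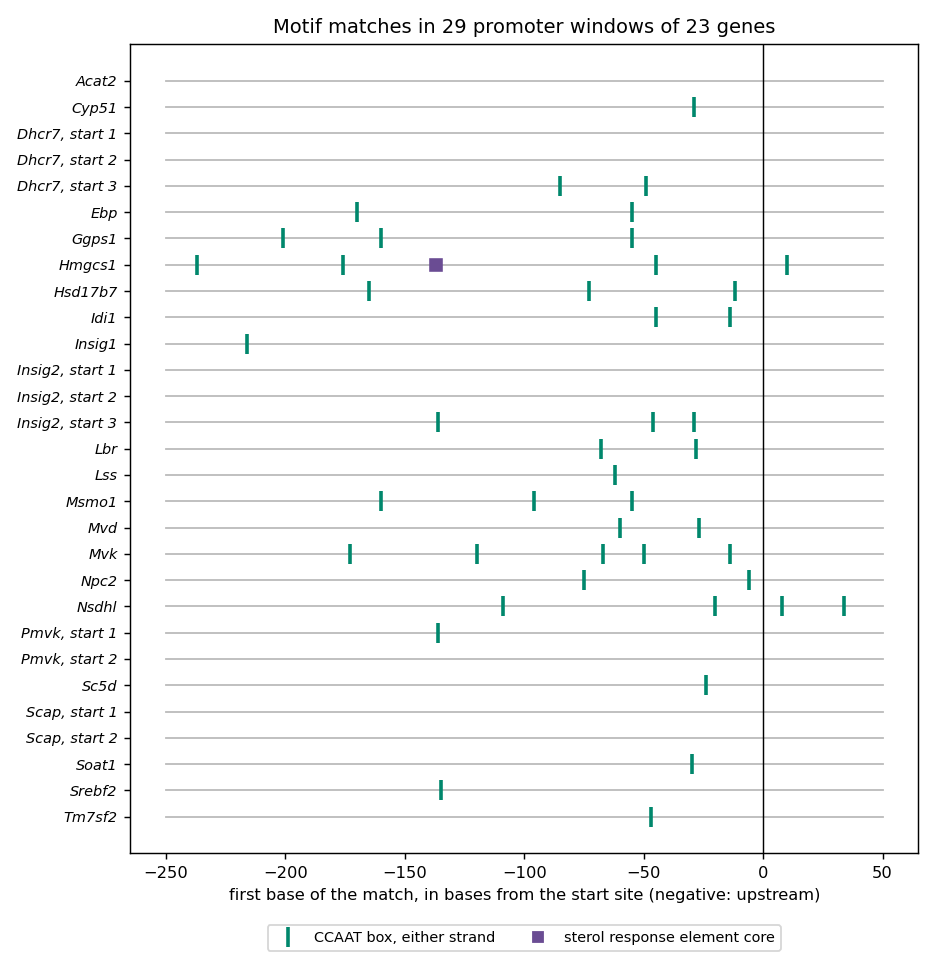
Position of CCAAT boxes (green bars) and of the sterol response element core (purple square) in 29 promoter windows of 23 genes, in bases from the start site, with genes that have several start sites given 1 line per start in order of coordinate. Of 45 CCAAT boxes 42 begin upstream of the start, at a median of 61 bases before it.

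Levels per length differed widely among the 28 genes. CPM, the count relative to library size scaled by TMM, was divided by exon length in kilobases. That length counts every base that is exonic in any annotated transcript of the gene, so the order per length also depends on the annotation. Lbr led, at 136 ± 4.93 CPM per kb in KO and 133 ± 0.566 CPM per kb in WT (SD, n = 3 each), and its counts made up 37.4% of the summed CPM of the set in KO and 38.6% in WT. Lbr encodes a protein of the inner nuclear membrane with sterol reductase activity that binds lamin and chromatin and is required for the segmented nucleus of neutrophils. Npc2, a soluble cholesterol carrier of the lysosome, followed at 46.2 ± 3.46 CPM per kb in KO and 40.3 ± 2.797 CPM per kb in WT. Srebf2 lay at 15.97 ± 1.37 CPM per kb in KO and 17.7 ± 1.54 CPM per kb in WT, and Mvd at 18.3 ± 1.11 CPM per kb in KO and 15.2 ± 4.25 CPM per kb in WT. Soat1 lay at 18.6 ± 2.14 CPM per kb in KO and 13.1 ± 0.875 CPM per kb in WT and Ebp at 15.7 ± 1.86 CPM per kb in KO and 12.3 ± 0.29 CPM per kb in WT. No adjacent pair of these 4 in the WT order differed by more than the larger SD of the pair. In the KO order Mvd and Srebf2 did, and the other adjacent pairs did not. The remaining 22 lay below 9 CPM per kb on average in both groups, down to Lss at 0.622 ± 0.0675 CPM per kb in KO and 0.837 ± 0.105 CPM per kb in WT. For Lss the exon length was 10787 bases, and in CPM without the division it was not the lowest. It averaged 6.71 CPM in KO and 9.03 CPM in WT, against 6.61 and 5.65 CPM for Mvk. The level of Tm7sf2, the other sterol reductase for the step that Lbr can catalyse, was 1.54 ± 0.204 CPM per kb in KO and 1.41 ± 0.135 CPM per kb in WT.

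**Figure D2:**
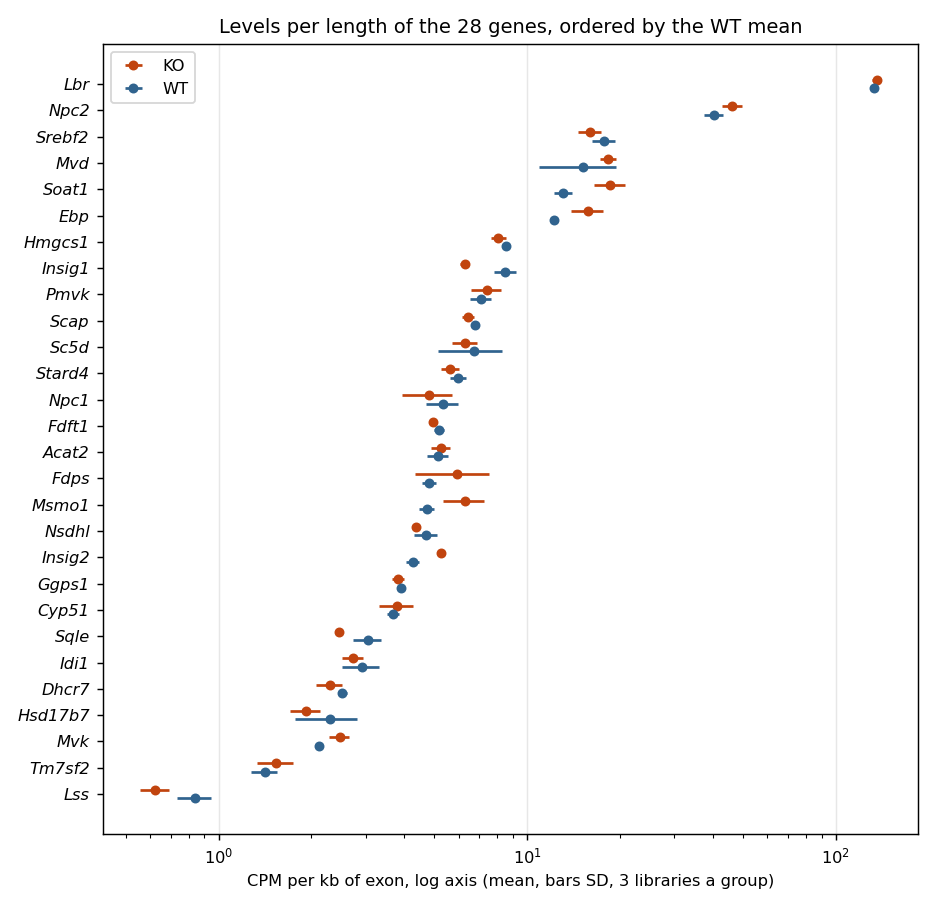
Mean CPM per kb of exon on a log axis for each of the 28 genes in KO (orange) and WT (blue), with SD over 3 libraries, ordered by the WT mean. Lbr and Npc2 stand above the rest, and Lss is lowest per kb of exon in both groups, though not in CPM.

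The question of KO against WT marrow was then taken gene by gene, in a test fitted over all 16956 genes that passed the filter. In KO marrow 1 of the 28 genes rose, Soat1, and 0 fell (edgeR quasi-likelihood test, Benjamini-Hochberg adjusted p under 0.05). The background was 0.938% of all tested genes called higher and 1.52% called lower (159 and 258 genes, or 87 and 403 with library totals as the only scaling and 170 and 168 once trends with exon length and GC content were taken out). At an unadjusted p under 0.05, 4 were higher and 3 lower (14.3% and 10.7%), against 11.7% and 12.2% of all genes. DESeq2 called Soat1, Msmo1 and Ebp higher and Insig1 lower, against 6.02% and 5.36% of the genes it tested, and limma called Soat1 higher and Insig1 lower, against 2.92% and 3.31%. All KO libraries lay above all WT libraries in 5 genes (17.9%) and below in 3 (10.7%), against 14.4% and 14.7% of all genes. By unadjusted p and by overlap, the shares of the set were thus near those of all genes in both directions. The median log2 fold change (KO minus WT) of the 28 was -0.05, against -0.0083 over all genes tested, with 13 positive and 15 negative values.

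Differences were small for most of the pathway. Each of the 28 estimates lay within a 1.5-fold difference in either direction. For 20 of the 28 the 95% interval also lay within it, and for Insig1, Mvd, Fdps, Lss, Msmo1, Hsd17b7, Ebp and Soat1 the interval reached beyond. The 19 synthetic enzymes other than Lbr summed to between 338 and 384 CPM in KO and between 329 and 362 CPM in WT, so that the groups overlapped. KO replicate 2 had the lowest median deviation over the set, -0.06 on the log2 scale from each gene's mean over the libraries, and KO replicate 3 the highest, 0.04.

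**Figure D3:**
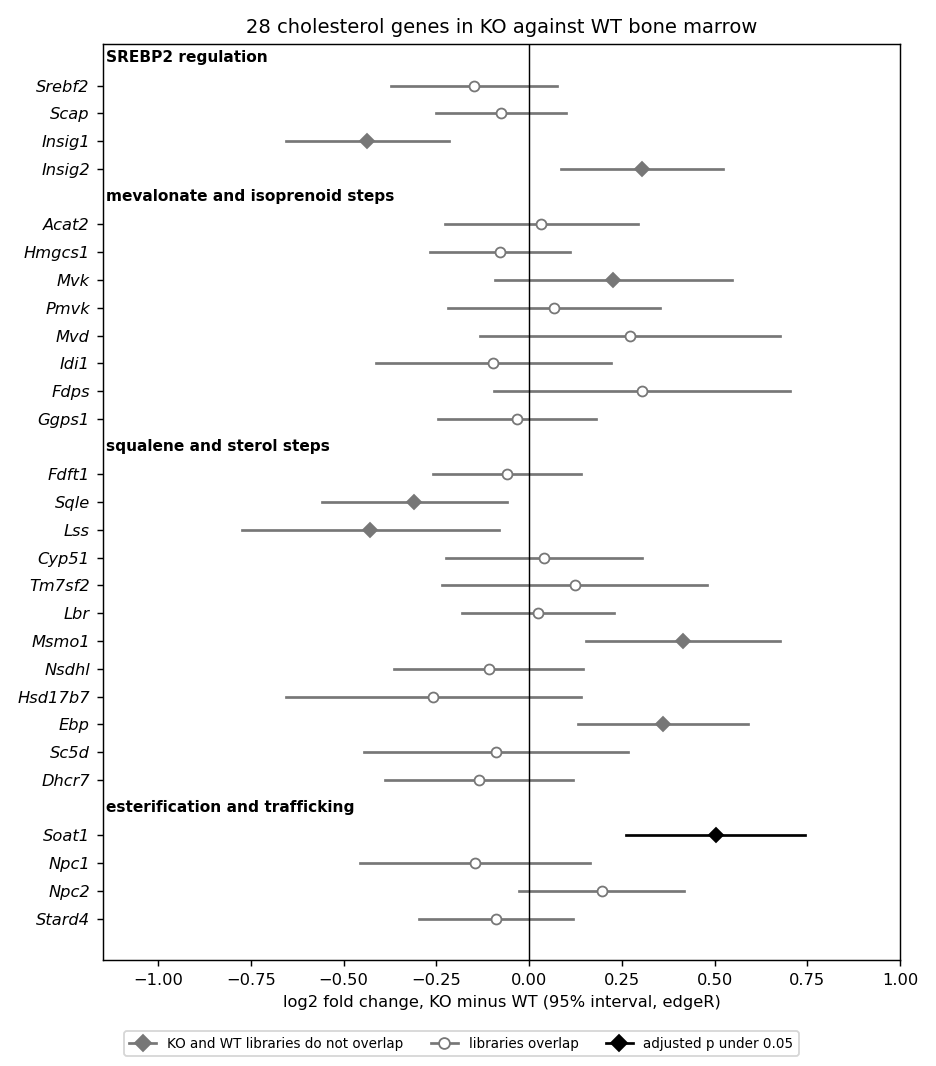
Log2 fold change, KO minus WT, of each of the 28 genes by role, with the 95% interval of the edgeR fit. Filled diamonds mark genes whose KO and WT libraries do not overlap (5 above, 3 below), and the black diamond marks Soat1, the gene past the threshold at 0.50.

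Below, library values are given for replicates 2, 3 and 4 of KO and then replicates 1, 3 and 4 of WT, in that order. The regulators of SREBP2 release are described first. Insig1, an endoplasmic reticulum anchor of Scap whose own gene is a target of SREBP2 (chr5:28071363-28078662, plus strand, GRCm38), was at 19.2, 20.1 and 18.8 CPM in KO, against 23.8, 27.9 and 26.95 CPM in WT. All 3 KO libraries were below all 3 WT libraries. Its log2 fold change was -0.44 ± 0.10 (SE, 95% interval -0.66 to -0.22), which is 0.739 times the WT level and did not pass over all genes (edgeR adjusted p = 0.0522).

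Insig2, the paralogue that retains Scap in the same way but is not known as an SREBP2 target (chr1:121304353-121332589, minus strand), was at 17.8, 18.7 and 18.3 CPM in KO, against 14.1, 15.5 and 14.8 CPM in WT. Here the KO libraries were all above the WT libraries, the opposite order. The log2 fold change was 0.30 ± 0.10 (SE, 95% interval 0.09 to 0.52, edgeR adjusted p = 0.11). Within a library, where scaling has no part, the count ratio of Insig1 to Insig2 was 1.08, 1.08 and 1.03 in KO, against 1.69, 1.80 and 1.82 in WT. This ratio was chosen after the values were seen and carries no test. With 3 libraries a group, no exact permutation test could give a p below 0.1.

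Srebf2 itself, which encodes the transcription factor (chr15:82147181-82205379, plus strand), was at 111, 126 and 107 CPM in KO, against 118, 124 and 139.7 CPM in WT. The ranges overlapped, and the log2 fold change was -0.15 ± 0.10 (SE, edgeR adjusted p = 0.388). Scap, the sterol-sensing escort (chr9:110333288-110384950, plus strand), was at 46.4, 50.2 and 46.99 CPM in KO, against 49.6, 49.7 and 52.05 CPM in WT. Its log2 fold change of -0.08 ± 0.08 (SE, edgeR adjusted p = 0.591) was within the spread of the libraries, the interval running from -0.25 to 0.10.

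**Figure D4:**
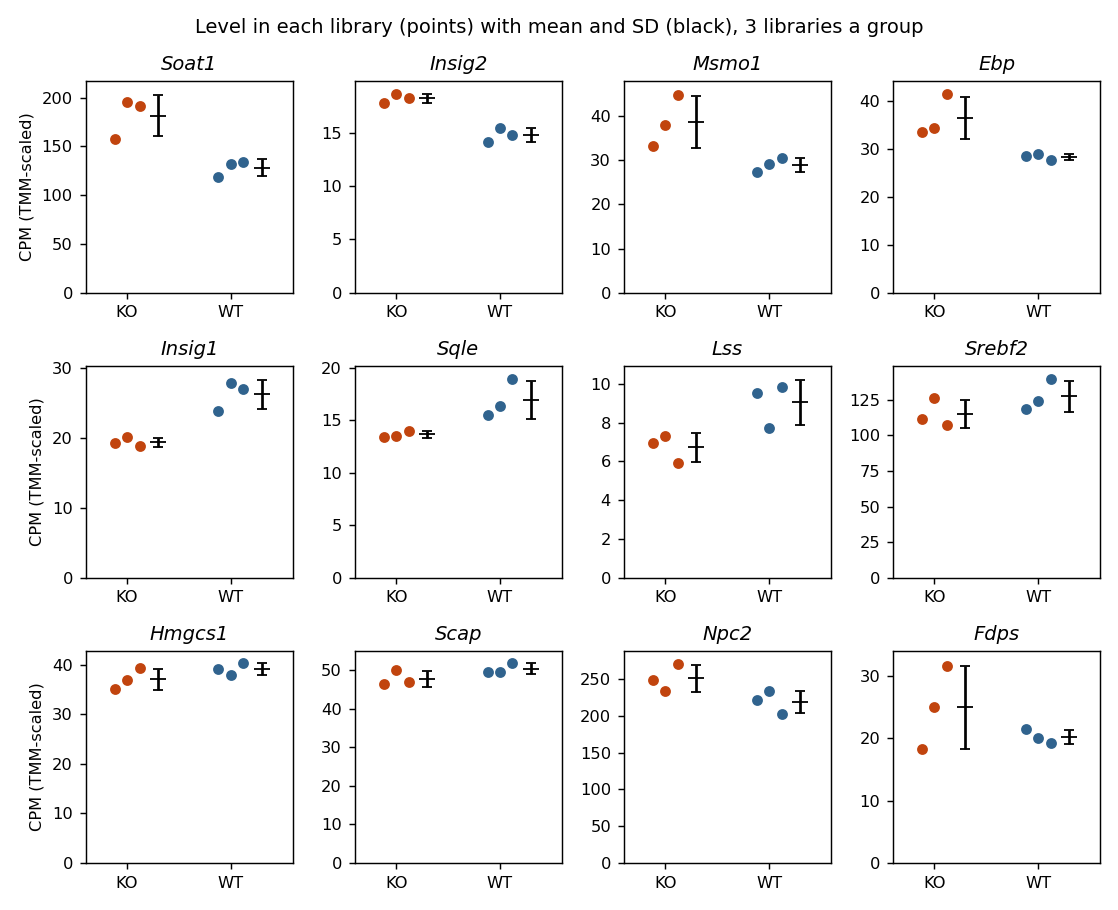
CPM in each library (points) with mean and SD (black) for 12 of the genes, KO on the left and WT on the right of each panel, each axis starting at 0. KO points lie above all WT points for Soat1, Insig2, Msmo1 and Ebp, below them for Insig1, Sqle and Lss, and overlap for the other 5.

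Of the 8 genes from acetyl-CoA to the isoprenoids, edgeR called 0, also at an unadjusted p under 0.05, as did DESeq2 and limma. Their summed level lay between 144 and 166 CPM in KO and between 140.3 and 153 CPM in WT, with overlap, and their median log2 fold change was 0.05. Hmgcs1, the synthase that makes HMG-CoA (chr13:119690379-119708260, plus strand) and the holder of the TCACNCCAC match above, was at 35.1, 36.9 and 39.3 CPM in KO, against 39.1, 38.03 and 40.4 CPM in WT. The groups overlapped, with a log2 fold change of -0.08 ± 0.08 (SE, 95% interval -0.27 to 0.11, edgeR adjusted p = 0.603).

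Mvk, mevalonate kinase, was at 6.296, 6.34 and 7.18 CPM in KO, against 5.61, 5.77 and 5.56 CPM in WT. Its KO libraries were above all WT libraries, by a log2 fold change of 0.23 ± 0.14 (SE, edgeR adjusted p = 0.359). Mvd, the decarboxylase that makes isopentenyl diphosphate, was at 32.1, 36.2 and 33.8 CPM in KO, against 21.7, 36.97 and 25.9 CPM in WT, and the WT libraries spread over a wider range than the KO libraries. The log2 fold change of Mvd was 0.27 (edgeR adjusted p = 0.383), 0.11 without WT replicate 1 and 0.52 without WT replicate 3.

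Fdps, which makes farnesyl diphosphate, was at 18.3, 24.9 and 31.6 CPM in KO, against 21.4, 20.03 and 19.3 CPM in WT. KO replicate 4 was the highest and KO replicate 2 the lowest of all 6, so that the log2 fold change of 0.30 ± 0.18 (SE, edgeR adjusted p = 0.326) lay within the KO spread. Without KO replicate 4 it was 0.0984, without KO replicate 2 0.49, and with Xist above or below 1 CPM as a covariate 0.15. Of its exon bases 26.7% are shared with Gm43738, which had 2 counts over all libraries. The other genes of this stretch were Acat2, a thiolase at the entry of the pathway (0.03), Pmvk, phosphomevalonate kinase (0.07), Idi1, the isopentenyl diphosphate isomerase (-0.10), and Ggps1, which makes the lipid for geranylgeranylation (-0.03), all given as log2 fold changes and none called. The values of 3 of these are uncertain because near-identical copies could share their reads. Acat2 matches Acat3 at 97.7% identity over 1477 bases, Acat3 having 103 counts over all libraries against 2957 for Acat2, and Idi1 and Ggps1 have processed pseudogenes of over 90% identity.

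From squalene to cholesterol, 12 genes were measured and 0 passed in edgeR, while 2 were higher and 2 lower at an unadjusted p under 0.05 (16.7% each, against 11.7% and 12.2% of all genes). The median log2 fold change of the 12 was -0.07. Sqle, squalene epoxidase and a rate-limiting enzyme of the pathway (chr15:59315077-59331192, plus strand), was at 13.4, 13.5 and 14.01 CPM in KO, against 15.5, 16.3 and 18.9 CPM in WT. Its KO libraries lay close together below all WT libraries, with a log2 fold change of -0.31 ± 0.11 (SE, 95% interval -0.56 to -0.06, edgeR adjusted p = 0.137).

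Lss, lanosterol synthase, which closes the sterol rings (chr10:76531588-76557138, plus strand), was at 6.95, 7.29 and 5.897 CPM in KO, against 9.51, 7.73 and 9.85 CPM in WT. The lowest WT library, replicate 3, was just above the highest KO library. The log2 fold change was -0.43 ± 0.15 (SE, 95% interval -0.78 to -0.08, edgeR adjusted p = 0.139), and -0.24 (edgeR adjusted p = 0.349) once trends with exon length and GC content were taken out.

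Msmo1, the methylsterol oxidase that begins removal of the methyl groups from lanosterol's product (chr8:64718139-64733792, minus strand), was at 33.2, 37.95 and 44.8 CPM in KO, against 27.4, 29.2 and 30.5 CPM in WT. All KO libraries were above all WT libraries, with KO replicate 4 highest, and the log2 fold change was 0.41 ± 0.12 (SE, 95% interval 0.15 to 0.68, edgeR adjusted p = 0.0835). Ebp, the isomerase that moves the double bond of the sterol ring (chrX:8185329-8193512, minus strand), was at 33.5, 34.3 and 41.3 CPM in KO, against 28.5, 28.8 and 27.6 CPM in WT, again without overlap, with a log2 fold change of 0.36 ± 0.10 (SE, 95% interval 0.13 to 0.59, edgeR adjusted p = 0.0842). The count ratio of Msmo1 to Sqle, chosen after the values were seen, was 2.48, 2.81 and 3.20 in KO, against 1.77, 1.79 and 1.61 in WT.

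The remaining 8 genes of this stretch overlapped between the groups and had adjusted p-values of 0.404 or above in edgeR. Hsd17b7, which reduces a sterol ketone in demethylation, had a log2 fold change of -0.26 ± 0.18 (SE), the furthest from 0 among them, with WT replicate 4 at 14.5 CPM above every other library. Its value was -0.08 without WT replicate 4, -0.16 without KO replicate 4, -0.41 without WT replicate 1 and -0.12 with the Xist covariate. Nsdhl, its partner dehydrogenase, was at -0.11, Dhcr7, the reductase of the last step, at -0.14, Sc5d, a sterol desaturase, at -0.09, Cyp51, which removes a methyl group from lanosterol, at 0.04 and Tm7sf2 at 0.12, of whose exon bases 12.1% are shared with Vps51. Vps51 had 9711 counts over all libraries, against 1456 for Tm7sf2. Fdft1, squalene synthase, was at -0.06, but 18.3% of its exon bases lie opposite exons of Ctsb, a cathepsin with 148761 counts against 4808 for Fdft1, and its value is uncertain because the counting's strand setting is not stated. A processed pseudogene, Gm6781, also matches Fdft1 at 97.4% identity over 1249 bases and had 4 counts. The strand limit holds too for smaller parts of Ggps1 (5.44%, opposite Arid4b, 15988 counts against 4092), Cyp51 (3.76%, Akap9, 14646 against 3704) and Npc1 (4.52%, Rmc1, 17082 against 12973). Lbr was at 619.7, 649.6 and 666 CPM in KO, against 637, 634 and 632 CPM in WT, a log2 fold change of 0.02 ± 0.09 (SE, 95% interval -0.18 to 0.23, edgeR adjusted p = 0.897). The late neutrophil marker sum did not overlap between the groups, and its part in the value of Lbr was not tested.

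**Figure D5:**
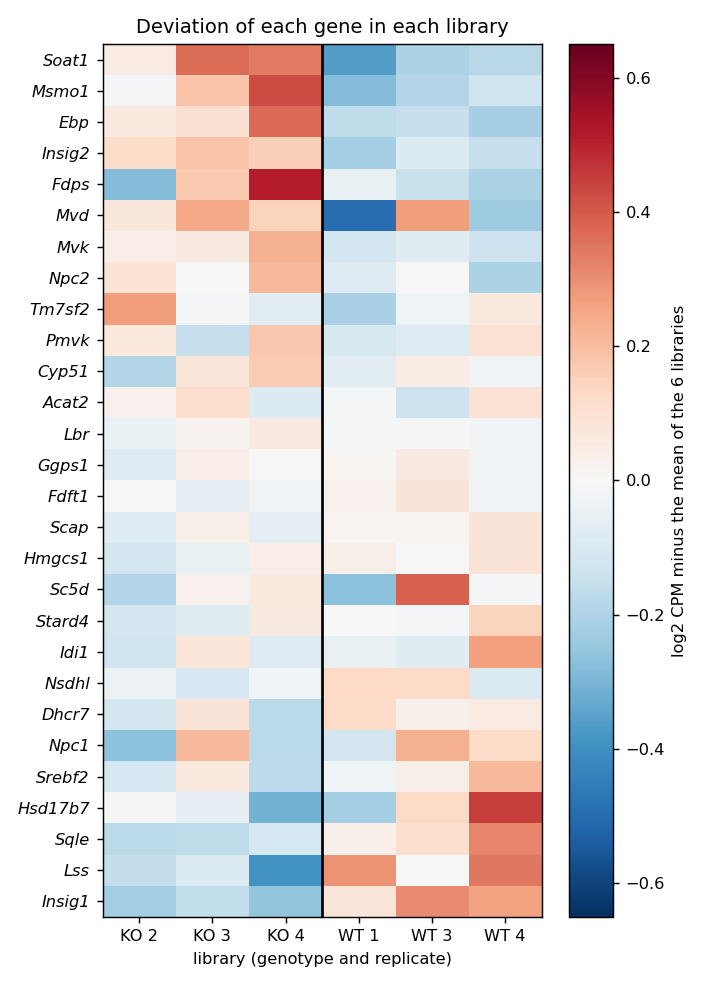
Log2 CPM of each gene in each library minus its mean over the 6 libraries, KO libraries left of the line and WT libraries right, genes ordered by log2 fold change from Soat1 (0.50) to Insig1 (-0.44). The top 4 and bottom 3 genes separate the groups, whereas Fdps in KO replicate 4 (0.51) and Mvd in WT replicate 1 (-0.49) are deviations of single libraries.

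Soat1 gave the one call in the set. It encodes the endoplasmic reticulum acyltransferase that esterifies cholesterol for storage in droplets (chr1:156424525-156474331, minus strand), and it was at 158, 196 and 192 CPM in KO, against 119, 132 and 134 CPM in WT. Every KO library was above every WT library, and the level was 1.42 times that of WT (log2 fold change 0.50 ± 0.11, SE, 95% interval 0.26 to 0.74, edgeR adjusted p = 0.0473). The call was at the edge of the threshold. It was kept without KO replicate 2 (adjusted p = 0.0214) and was lost without any other single library (adjusted p = 0.0594 to 0.176), with library totals as the only scaling (0.0594) and with Xist above or below 1 CPM as a covariate (0.0899), the log2 fold change staying between 0.43 and 0.67 over all alternatives.

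Of the trafficking genes, Npc2 was at 249, 233 and 271 CPM in KO, against 221, 234 and 203 CPM in WT, with a log2 fold change of 0.19 ± 0.10 (SE, edgeR adjusted p = 0.261) and KO replicate 3 just below WT replicate 3, so that the groups overlapped. With library totals as the only scaling it was 0.12. The 4 genes of esterification and trafficking together lay between 484 and 547 CPM in KO and between 425 and 464 CPM in WT, without overlap, while the neutrophil marker sums were also higher in every KO library and their part in this was not tested. Without Soat1 the other 3 genes lay between 326 and 355 CPM in KO and between 301 and 332 CPM in WT and overlapped. Npc1, the lysosomal membrane protein that accepts cholesterol from Npc2, averaged 54.6 ± 9.98 CPM in KO and 60.4 ± 7.27 CPM in WT (SD, n = 3 each), with a log2 fold change of -0.15 (edgeR adjusted p = 0.553). Stard4, a soluble sterol carrier of the cytosol, averaged 31.4 ± 2.09 CPM in KO and 33.4 ± 2.02 CPM in WT, with a log2 fold change of -0.09 (edgeR adjusted p = 0.588). The interval of the Stard4 difference, -0.30 to 0.12, lay within 1.5-fold in either direction.

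Sites for miR-181a and miR-181b were looked for in the longest annotated 3′ untranslated region of each gene (GENCODE M21, GRCm38). An 8mer (TGAATGTA), a 7mer-m8 (TGAATGT) or a 7mer-A1 (GAATGTA) was present in 7 of the 28 genes (25.0%), against 23.1% of the 13705 tested genes with such a region. The 4 genes with an 8mer were Fdft1, Hsd17b7, Nsdhl and Soat1, and Insig2, Lbr and Npc2 had a 7mer-m8 as their longest match. Soat1, whose annotated region is the longest of these at 6534 bases, held an 8mer, a 7mer-m8 and a 6mer, and Hsd17b7 held a 7mer-m8 besides its 8mer. The sites are shown with neighbouring bases because their letters complement the seed of the deleted microRNAs, capitals marking the match.
Soat1 8mer site, chr1:156428155-156428184, minus strand: tgttgatggaTGAATGTAttaaaattacct
Soat1 7mer-m8 site, chr1:156424884-156424913, minus strand: ggaggtacaaTGAATGTtctgaatgcccga
Hsd17b7 8mer site, chr1:169949576-169949605, minus strand: gggctcttgaTGAATGTAtgaacagttgat
Hsd17b7 7mer-m8 site, chr1:169952482-169952511, minus strand: gagaaaggtgTGAATGTgtttgggccacaa
Nsdhl 8mer site, chrX:72957993-72958022, plus strand: aaagtattgaTGAATGTAatccccaatcct
Fdft1 8mer site, chr14:63145486-63145515, minus strand: ctcagccttcTGAATGTAcgagttataggc
Insig2 7mer-m8 site, chr1:121305188-121305217, minus strand: tttgtttagaTGAATGTgcttgggaatact
Npc2 7mer-m8 site, chr12:84755281-84755310, minus strand: tattcagctgTGAATGTgagctgtaagtga
Lbr 7mer-m8 site, chr1:181816286-181816315, minus strand: gtacagttttTGAATGTgagataattgtca

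Among the carriers of an 8mer the log2 fold changes pointed both ways, 0.50 for Soat1, -0.06 for Fdft1, -0.11 for Nsdhl and -0.26 for Hsd17b7, and only the first was called. With a 7mer-m8, Insig2 was at 0.30, Npc2 at 0.19 and Lbr at 0.02. The median of the 7 genes was 0.02, against -0.05 over the 3169 tested genes with an 8mer or 7mer. For the 18 members without even a 6mer (GAATGT) it was -0.02, against 0.03 over the 8788 such genes tested. A match is a description of these letters and does not show that the site is used in marrow.

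Related genes from lists outside the 28 were compared in the same test. Among 23 genes of cholesterol uptake, transport and storage 0 passed in edgeR, while 9 were higher and 1 lower at an unadjusted p under 0.05 (39.1% and 4.35%, against 11.7% and 12.2% of all genes), and the median log2 fold change was 0.15. This list too was made with earlier results known, so its share of higher values is a description and supports nothing further. The lower gene was Lrp8, an uptake receptor, with a log2 fold change of -0.29 (edgeR adjusted p = 0.138). The uptake receptors Lrp1, Scarb1 and Vldlr had log2 fold changes of -0.42, 0.005 and 0.15, and their groups overlapped. DESeq2 called Scp2, Tspo and Gramd1a higher, against 6.02% of the genes it tested, and limma called Scp2 higher, against 2.92%. Tspo, named here after its values were seen, averaged 281 ± 86.0 CPM in KO and 180 ± 33.1 CPM in WT (SD). Its groups overlapped (log2 fold change 0.64, edgeR adjusted p = 0.152). Scp2, a sterol carrier that also serves peroxisomes, averaged 265 ± 25.1 CPM in KO and 196 ± 10.4 CPM in WT (SD, n = 3 each), with a log2 fold change of 0.44 ± 0.10 (SE, edgeR adjusted p = 0.0538). Nceh1, a hydrolase of cholesteryl esters and thus the counterpart of Soat1, averaged 57.97 ± 1.88 CPM in KO and 47.3 ± 3.86 CPM in WT (log2 fold change 0.29, edgeR adjusted p = 0.0934), and Gramd1a, which moves cholesterol from the plasma membrane to the endoplasmic reticulum, 140.1 ± 0.53 CPM in KO and 114 ± 10.4 CPM in WT (log2 fold change 0.29, edgeR adjusted p = 0.103). The KO libraries were above all WT libraries in Scp2, Nceh1 and Gramd1a, which were picked for the smallest p of the list. Over the 23 genes, all KO libraries lay above in 7 (30.4%) and below in 1 (4.35%). Over all genes the shares were 14.4% and 14.7%. The late neutrophil and neutrophil precursor marker sums were also higher in every KO library, and their part in these values was not tested.

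Among 18 measured further enzymes of sterol and isoprenoid use 0 passed in edgeR, 3 were higher and 2 lower at an unadjusted p under 0.05 (16.7% and 11.1%, against 11.7% and 12.2% of all genes), DESeq2 called 1 (Pggt1b, lower) and limma 0. Pggt1b, a subunit of an enzyme that attaches isoprenoid lipids to proteins, averaged 17.7 ± 2.75 CPM in KO and 23.9 ± 1.06 CPM in WT (SD, n = 3 each), a log2 fold change of -0.43 ± 0.12 (SE, edgeR adjusted p = 0.0887). Cyb5r3, a reductase that feeds electrons to sterol oxidation, had -0.24 and Fnta, a subunit shared by prenyltransferases, 0.24 as log2 fold changes. Among 11 genes that cut SREBP proteins or turn their regulators over, 0 passed in edgeR, as in DESeq2 and limma. By an unadjusted p under 0.05 in edgeR, 0 were higher and 1 lower (0% and 9.09%, against 11.7% and 12.2% of all genes). The lower one was Mbtps1, the site-1 protease of SREBP cleavage, at 81.7 ± 7.501 CPM in KO and 95.9 ± 2.26 CPM in WT (log2 fold change -0.23 ± 0.09, SE, edgeR adjusted p = 0.157). Mbtps2, the protease of the next cut, had -0.17 and Erlin1, a membrane scaffold for Insig turnover, 0.20. All KO libraries lay below all WT libraries in 2 of the 11 genes (18.2%), Mbtps1 and Mbtps2, and above in 0. Among the 18 further enzymes they lay below in 1 (5.56%) and above in 4 (22.2%). Over all genes the shares were 14.7% below and 14.4% above.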

How the data were processed

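Bone marrow RNA was profiled in 3 KO and 3 WT libraries. The deposited table holds raw read counts per gene. Per the submitters' processing notes, the authors named STAR 2.5.2b, Trimmomatic 0.36, Subread 1.5.2 with featureCounts, and the build GRCm38. Settings, strand and annotation release are not stated. Of 49315 rows 49056 matched GENCODE M21 (GRCm38), and rows without a symbol held 0.0143% to 0.0195% of counts. That annotation was used for symbols, coordinates, exon lengths and 3′ untranslated regions.

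Counts as deposited were tested with edgeR 4.0.16 (R 4.3.3): TMM scaling, filterByExpr, robust quasi-likelihood fit over 16956 genes, two-sided, Benjamini-Hochberg adjustment, threshold 0.05. Fold changes are log2, KO minus WT, and CPM is the count over the tested library total times its TMM factor. Alternatives were other scalings and filters, DESeq2 1.42.0, limma 3.58.1, a replicate block, an Xist covariate, removal of length and GC trends, and each library left out. The procedure was also run on simulated counts drawn from the fitted spread of each gene. Those counts hold no library that stands apart as KO replicate 4 does, and no result here rests on that run. All members are described, with every library's value for Soat1, the 10 next by p, and named regulators. Related genes were named where called in edgeR, otherwise the 3 with the smallest p per list. Tspo and the uptake receptors were named besides these. Members and lists were chosen with earlier results of these data known. One related gene, Faxdc2, was not analysed here.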

Additional observations from a re-analysis of the deposited data

How the results depend on the processing

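The genes called over all features numbered 417 of 16956 in the main fit. They numbered 1492 of 30403 with no filter on low counts and 437 of 12157 with a mean log2 CPM of 1 or more. The Xist covariate gave 209 of 16956, DESeq2 1577 of 13864 and limma 1057 of 16956. With a library left out, the genes called numbered between 32 and 920 (KO replicate 3 920, KO replicate 4 32, WT replicate 1 33, WT replicate 3 199, WT replicate 4 37). Members called numbered 4 with no filter, 4 with DESeq2, 2 with limma, 2 with genes kept by a mean log2 CPM of 1 or more, 2 without haemoglobin, mitochondrial and immunoglobulin genes, 0 with the Xist covariate, and 0 to 2 with a library left out. With library totals only the 1 member called was Insig1 (log2 fold change -0.51, adjusted p = 0.0371) in place of Soat1. Insig1 passed in 6 of 10 alternatives (adjusted p 0.0136 to 0.0862) and in 0 of 6 with a library left out. Of the further enzymes 1 was called with no filter and 1 with DESeq2 (0 to 1 with a library left out), and of the uptake, transport and storage genes 1 with no filter, 1 without the abundant genes, 3 with DESeq2 and 1 with limma (0 to 2). The members' median was -0.12 with library totals only and 0.0348 after removal of length and GC trends, where the median of all genes was -0.08 and 0.05.

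Signs turned for some genes, whose log2 fold changes in the main fit ran from -0.15 (Npc1) to 0.12 (Tm7sf2). These were Acat2 (-0.0387), Pmvk (-0.0077), Cyp51 (-0.0334) and Lbr (-0.0484) with library totals only, Cyp51 with the Xist covariate (-0.0030), Scap (0.0546), Ggps1 (0.0129) and Npc1 (0.0391) after removal of length and GC trends, and Acat2 with limma (-0.0067). With a library left out, Acat2 ran from -0.0257 to 0.089, Sc5d from -0.23 to 0.11, Idi1 from -0.16 to 0.0225, Ggps1 from -0.0529 to 0.0065, Pmvk from -0.0029 to 0.16 and Cyp51 from -0.0306 to 0.14. The cause was not tested. With the replicate block 571 genes and 1 member (Soat1, adjusted p = 0.0386) were called, and Tm7sf2 turned to -0.0613; same-numbered libraries share only a number (correlation of deviations 0.21 for number 3 and -0.14 for number 4). No other member changed its call under the block.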
